A study of Arabidopsis thaliana with 16 samples.

Results

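The WRKY genes encode a large family of plant transcription factors, and 53 listed loci of this family were looked up among the probe sets of an Affymetrix ATH1 array. The loci are those listed under the family's name, and the family was chosen with earlier results of these data known. Of these, 7 had a probe set matched to a single gene in the annotation used, out of 13286 genes with such a probe set in all, and the other 46 were not analysed here. The 7 genes were WRKY6 (AT1G62300, probe set 264746_at), WRKY47 (AT4G01720, 255596_at) and WRKY42 (AT4G04450, 255337_at) of subgroup IIb, WRKY53 (AT4G23810, 254231_at) of subgroup III, WRKY22 (AT4G01250, 255568_at) of subgroup IIe, and ZAP1 (AT2G04880, 263626_at), also known as WRKY1, and WRKY20 (AT4G26640, 253983_at) of subgroup I. They covered 3 of 6 listed loci of subgroup IIb, 2 of 10 of subgroup I, 1 of 9 of subgroup III and 1 of 7 of subgroup IIe. None of the 3 listed loci of IIa, 11 of IIc and 7 of IId was among them, so the 7 genes are not a sample of the whole family.

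WRKY proteins bind DNA through a conserved domain that contains a zinc finger, and subgroup I members carry a pair of such domains. Many family members are switched on when a plant recognises a pathogen, by mitogen-activated protein kinases and by salicylic acid, and some act in leaf senescence. They bind a short element in the promoters of defence genes and of other WRKY genes, and both activators and repressors are known.

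Leaves of 4-week-old Arabidopsis thaliana were sampled 6 h after avrB or untreated, in the lines atgsnor1-1, atgsnor1-3, sid2 and Col-0, which gave 8 groups of 2 arrays. GSNOR1 encodes S-nitrosoglutathione reductase. The line atgsnor1-1 is known for raised activity of this enzyme, and atgsnor1-3 for its loss. The mutant sid2 is known to lack the enzyme that makes most of the salicylic acid formed after infection, and Col-0 is the wild type. AvrB is a protein that Pseudomonas syringae, a bacterial leaf pathogen, delivers into plant cells, and Col-0 recognises it. The labels do not say how avrB was delivered, give no mock treatment, name no allele number for sid2, and leave unsaid whether replicate arrays came from different plants. All p-values thus rest on the spread between the arrays given, and part of that spread may be technical. With no mock treatment, effects of avrB and of its delivery cannot be told apart.

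Signals are linear units as deposited, and differences are on the log2 scale ± SE from limma with 2 arrays per group. A gene was called when the Benjamini-Hochberg adjusted p was under 0.05 and the log2 difference was at least 1 in size. Probe sets with a mean signal under 20.2 units were left out, and 13647 were tested. WRKY42 fell under that level, so 6 of the 7 genes were tested. Folds against groups near or under that level are imprecise. Signals of different probe sets were not set against each other. Array medians lay between 33.1 and 40.9 units, and arrays of a group correlated across probe sets with r between 0.920 and 0.972. Of 6 leaf mesophyll markers 1 was matched, RCA, which encodes an activator of the carbon-fixing enzyme Rubisco, and it stood between 2870 and 7360 units on all arrays. The guard cell marker FAMA (1 of 4 matched) stood between 29.2 and 71.9 units, and the root hair marker EXPA7 (1 of 4 matched) between 3.00 and 44.2 units. No marker of phloem companion cells, trichomes or flowers was matched.

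**Figure D1:**
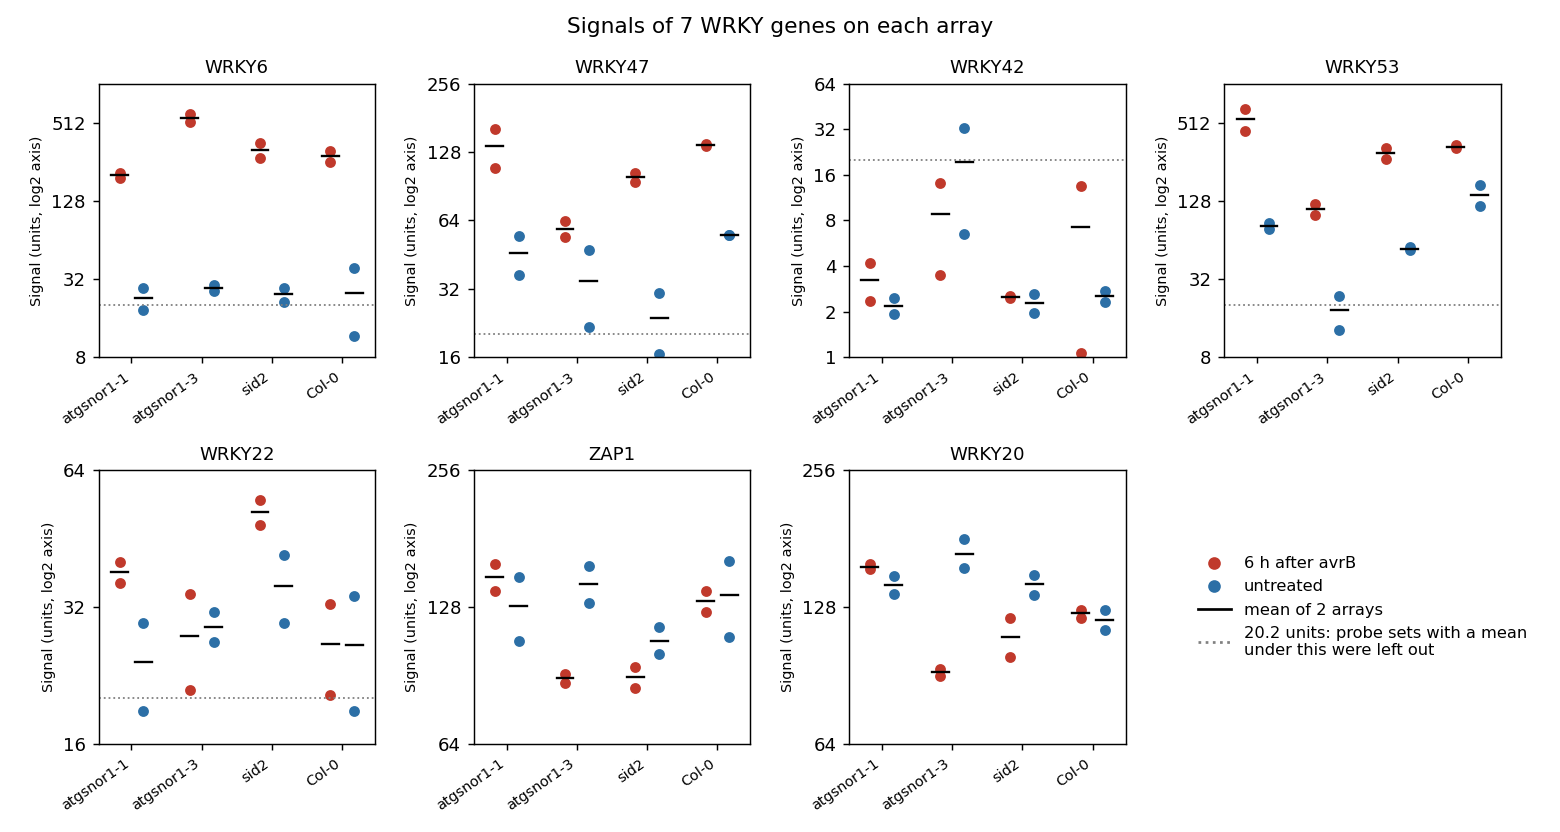
Signal of each of the 7 WRKY genes on every array, on a log2 axis in deposited units; red points are arrays 6 h after avrB, blue points are untreated arrays, black bars are means of 2 arrays, and the dotted line marks 20.2 units. WRKY6 stood at 192 units or more on every avrB array and at 38.7 units or less on every untreated array, while WRKY53 differed between genotypes in both states.

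The first comparison asked how WRKY transcripts differed between avrB-treated and untreated leaves of each genotype. WRKY6 and WRKY53 were called higher in all 4 genotypes, and WRKY47 was called higher in all but atgsnor1-3. WRKY22, ZAP1 and WRKY20 had no call in any. Of the 7 matched genes, 6 were tested. Of these, 3 were called higher in atgsnor1-1, 2 in atgsnor1-3, 3 in sid2 and 3 in Col-0, and none was called lower. Of all tested probe sets, 8.58% were called higher and 10.5% lower in atgsnor1-1, and 15.0% higher and 20.0% lower in atgsnor1-3. In sid2 10.9% were called higher and 11.6% lower, and in Col-0 7.31% higher and 5.07% lower. For the 6 tested genes the median log2 difference was 1.13 in atgsnor1-1, 0.38 in atgsnor1-3, 1.35 for sid2 and 0.65 for Col-0, against -0.08, -0.15, -0.16 and -0.12 over all tested probe sets.

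WRKY6, which is linked to leaf senescence, to pathogen responses and to phosphate transport, had 192 and 211 units in atgsnor1-1 after avrB, against 18.4 and 27.2 units in untreated atgsnor1-1. In atgsnor1-3 it had 595 and 520 units after avrB, against 25.9 and 28.6 units untreated. In sid2 it had 274 and 359 units after avrB, against 27.3 and 21.5 units untreated. In Col-0 the signals were 312 and 257 units after avrB and 11.7 and 38.7 units untreated. All avrB arrays thus lay far above all untreated arrays, and the untreated arrays of the 4 genotypes overlapped.

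The rise of WRKY6 was 3.17 ± 0.38 in atgsnor1-1 (9.01-fold, limma adjusted p = 9.95e-06) and 4.35 ± 0.38 in atgsnor1-3 (20.4-fold, limma adjusted p = 1.07e-07). It was 3.69 ± 0.38 in sid2 (12.9-fold, limma adjusted p = 1.44e-06) and 3.74 ± 0.38 in Col-0 (13.3-fold, limma adjusted p = 5.1e-06). In Col-0 this was the 64th largest of 13647 differences, while WRKY6 ranked 164 for atgsnor1-1, 217 for atgsnor1-3 and 207 for sid2. The untreated Col-0 arrays differed most among themselves, and the Col-0 rise was 2.87 without array 1 of untreated Col-0 and 4.60 without array 2.

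WRKY53, a regulator of leaf senescence that also responds to salicylic acid, had 651 and 443 units in atgsnor1-1 after avrB, against 87.1 and 78.3 units untreated. In atgsnor1-3 the signals were 99.8 and 122 units after avrB, against 23.9 and 13.0 units untreated. In sid2 they were 327 and 268 units after avrB, against 56.7 and 53.4 units untreated. In Col-0 they were 325 and 344 units after avrB, against 116 and 170 units untreated. Within each genotype the avrB arrays lay above the untreated arrays, but both avrB arrays of atgsnor1-3 lay within or below the range of untreated Col-0.

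WRKY53 rose by 2.70 ± 0.27 in atgsnor1-1 (6.50-fold, limma adjusted p = 1.68e-06), by 2.65 ± 0.27 in atgsnor1-3 (6.26-fold, limma adjusted p = 5.82e-07), by 2.43 ± 0.27 in sid2 (5.39-fold, limma adjusted p = 3.09e-06) and by 1.25 ± 0.27 in Col-0 (2.39-fold, limma adjusted p = 0.00287). Without array 1 of untreated Col-0 the Col-0 value was 0.98, under the size needed for a call. Array 2 of untreated atgsnor1-3 lay under 20.2 units, so the size of the atgsnor1-3 rise is imprecise. It was 2.21 without that array and 2.13 with a pseudocount.

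WRKY47, which has been linked to growth at low boron, had 162 and 109 units in atgsnor1-1 after avrB, against 37.0 and 54.8 units untreated. In sid2 it had 104 and 94.9 units after avrB, against 30.8 and 16.6 units untreated. In Col-0 it had 139 and 136 units after avrB, against 55.4 and 55.0 units untreated. The groups did not overlap in any of these genotypes. It rose by 1.57 ± 0.36 in atgsnor1-1 (limma adjusted p = 0.00267), by 2.14 ± 0.36 in sid2 (limma adjusted p = 0.00017) and by 1.32 ± 0.36 in Col-0 (limma adjusted p = 0.0123). Array 2 of untreated sid2 lay under 20.2 units, so the size of the sid2 rise is imprecise. In atgsnor1-3 the signals were 54.3 and 63.5 units after avrB, against 21.8 and 47.3 units untreated, and these groups did not overlap either. The difference was 0.87 ± 0.36, which is under the size needed. This response differed from that in Col-0 by -0.45 (limma adjusted p = 0.591), with no call.

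The calls of WRKY47 rested on both arrays of a group in some genotypes. In Col-0 the call ended without any 1 of the 4 arrays, with limma adjusted p between 0.051 and 0.067 and log2 differences between 1.31 and 1.33. In atgsnor1-3 the difference depended on which untreated array was left out: it was 0.31 (limma adjusted p = 0.499) without array 1 of untreated atgsnor1-3 and 1.43 (limma adjusted p = 0.00391), which would be a call, without array 2. With quantile normalization it was 1.09 (limma adjusted p = 0.0213), also past both thresholds.

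**Figure D2:**
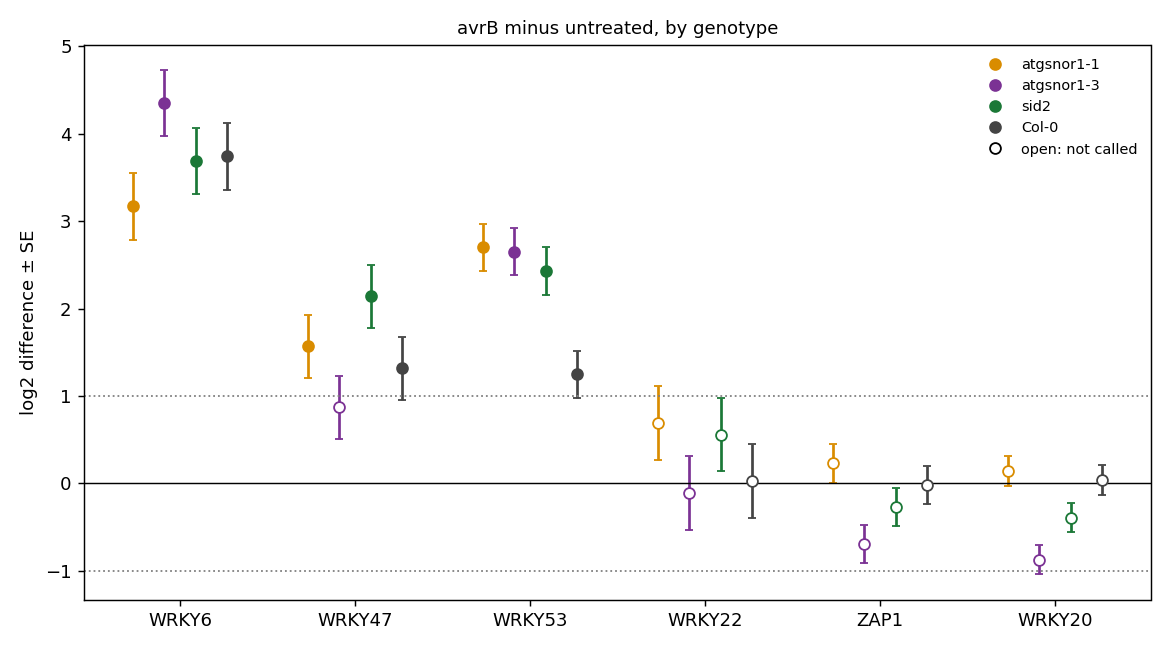
Log2 difference between avrB and untreated leaves for the 6 tested WRKY genes, with bars of 1 SE from limma; colours mark the genotype, filled points are called, open points are not, and dotted lines mark differences of 1 in size. WRKY6 stands between 3.17 and 4.35 in all genotypes, and WRKY53 stands at 1.25 in Col-0 against 2.43 to 2.70 in the mutants. For WRKY53 the difference from the Col-0 response was called only in atgsnor1-3, and that call ended in several alternatives.

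ZAP1 and WRKY20, the subgroup I genes, had signals on every array and small differences. ZAP1 had 91.4 and 87.3 units in atgsnor1-3 after avrB, against 158 and 131 units untreated, and 159 and 139 units in atgsnor1-1 after avrB, against 108 and 149 units untreated. In sid2 it had 85.2 and 94.4 units after avrB, against 116 and 101 units untreated, and in Col-0 125 and 139 units after avrB, against 110 and 162 units untreated. WRKY20 had 93.8 and 90.2 units in atgsnor1-3 after avrB, against 156 and 181 units untreated, the widest gap of this gene. Its other signals were 155 and 159 units after avrB against 137 and 150 units untreated in atgsnor1-1, 99.6 and 121 units against 151 and 136 units in sid2, and 126 and 121 units against 126 and 114 units in Col-0.

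In atgsnor1-3 both subgroup I genes had avrB arrays below the untreated arrays, with a difference of -0.87 ± 0.17 for WRKY20 (limma adjusted p = 0.000396) and -0.69 ± 0.22 for ZAP1 (limma adjusted p = 0.014). Both values passed the p threshold and missed the size threshold, so neither was called. Counted from the lowest difference, WRKY20 ranked 3322 and ZAP1 4085 of 13647, and 20.0% of all tested probe sets were called lower. Falls of this size were thus common in atgsnor1-3 and do not mark out these genes. For ZAP1, leaving out 1 array gave limma adjusted p between 0.0164 and 0.0955. Across the 4 genotypes the responses ran between -0.69 and 0.23 for ZAP1 and between -0.87 and 0.14 for WRKY20.

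WRKY22, which acts in the kinase pathway started by bacterial flagellin, had low signals. It had 40.2 and 36.1 units in atgsnor1-1 after avrB, against 18.9 and 29.6 units untreated, and 34.2 and 21.0 units in atgsnor1-3 after avrB, against 26.8 and 31.2 units untreated. In sid2 it had 48.6 and 55.2 units after avrB, against 29.6 and 41.6 units untreated. In Col-0 it had 20.5 and 32.5 units after avrB, against 18.9 and 33.9 units untreated. The arrays overlapped in atgsnor1-3 and Col-0 and did not in atgsnor1-1 and sid2, and the 4 differences ran between -0.11 and 0.69 with no call.

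The leaf marker RCA had lower signals on every avrB array than on every untreated array. Its arrays lay between 2870 and 4300 units after avrB and between 5230 and 7360 units untreated, with log2 differences of -0.95 ± 0.17 in atgsnor1-1, -0.74 ± 0.17 in atgsnor1-3, -0.89 ± 0.17 in sid2 and -0.76 ± 0.17 in Col-0. All 4 passed the p threshold, with limma adjusted p between 0.000475 and 0.00432, and missed only the size threshold. Its part in the WRKY results was not tested. In whole leaves, fewer cells of a type and less RNA per cell cannot be told apart.

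The next comparison asked whether WRKY levels in untreated mutants differed from untreated Col-0. WRKY53 was lower in atgsnor1-3 and sid2, WRKY47 was lower in sid2, and no tested WRKY gene was called higher in any mutant. Among the 6 tested genes 1 was called lower in atgsnor1-3, where 6.50% of all tested probe sets were called lower and 2.29% higher. In sid2 2 were called lower, where 3.96% of all tested probe sets were called lower and 1.96% higher. In atgsnor1-1 the limma test called 0 of them, with 1 at an unadjusted p under 0.05, and 0.147% of all tested probe sets in either direction. The 3 comparisons share the Col-0 arrays.

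WRKY53 averaged 18.4 ± 7.72 units in untreated atgsnor1-3, 55.0 ± 2.32 units in untreated sid2 and 82.7 ± 6.18 units in untreated atgsnor1-1, against 143 ± 38.4 units in untreated Col-0 (SD, n = 2 each). The arrays of these groups did not overlap. Against Col-0 the differences were -2.99 ± 0.27 in atgsnor1-3 (limma adjusted p = 8.87e-07), -1.35 ± 0.27 in sid2 (limma adjusted p = 0.00354) and -0.76 ± 0.27 in atgsnor1-1 (limma adjusted p = 0.41). The sid2 call ended without array 2 of untreated Col-0, at -1.07 (limma adjusted p = 0.0569). Array 2 of untreated atgsnor1-3 lay under 20.2 units, so the size of that difference is imprecise.

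Set against untreated sid2 directly, WRKY53 was lower in untreated atgsnor1-3 by -1.64 ± 0.27 (limma adjusted p = 0.00236). It was the 1 gene called of the 6 tested. In that comparison 1.83% of all tested probe sets were called lower and 0.418% higher. With those 4 arrays alone in the fit, the limma adjusted p was 0.115.

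WRKY47 averaged 23.7 ± 10.0 units in untreated sid2 and 34.6 ± 18.0 units in untreated atgsnor1-3, against 55.2 ± 0.276 units in untreated Col-0 (SD, n = 2 each). Both mutants had all arrays below both Col-0 arrays. The difference was -1.29 ± 0.36 in sid2 (limma adjusted p = 0.0275) and -0.78 ± 0.36 in atgsnor1-3 (limma adjusted p = 0.149). Array 2 of untreated sid2, at 16.6 units, lay under 20.2 units, so the size of the sid2 difference is imprecise. The sid2 call ended without array 1 or array 2 of untreated Col-0 (limma adjusted p = 0.0911 and 0.105), and without array 2 of untreated sid2, at -0.84. It also ended with a pseudocount and in a fit limited to the compared groups (limma adjusted p = 0.0749). In atgsnor1-3 the difference was -0.22 (limma adjusted p = 0.729) without array 1 of untreated atgsnor1-3 and -1.34 (limma adjusted p = 0.0205) without array 2, so its size rested on which of them was kept.

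WRKY6 averaged 22.8 ± 6.23 units in untreated atgsnor1-1, 27.2 ± 1.95 units in untreated atgsnor1-3 and 24.4 ± 4.16 units in untreated sid2, against 25.2 ± 19.1 units in untreated Col-0 (SD, n = 2 each). Every mutant's arrays overlapped those of Col-0, which stood at 11.7 and 38.7 units. Without array 2 of untreated Col-0, WRKY6 would be called higher in atgsnor1-3, at 1.22 (limma adjusted p = 0.0104), and in sid2, at 1.05 (limma adjusted p = 0.0369). Without array 1 both differences changed sign, to -0.51 in atgsnor1-3 and -0.67 in sid2. WRKY20 was at 0.49 ± 0.17 in untreated atgsnor1-3 (limma adjusted p = 0.0572), its arrays lying above those of Col-0.

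After avrB the same comparison was made against Col-0 after avrB. WRKY53 and WRKY47 were lower in atgsnor1-3 than in Col-0, and no tested WRKY gene was called in atgsnor1-1 or sid2. In atgsnor1-3 the 2 calls were out of 6 tested genes, where 8.76% of all tested probe sets were called lower and 4.32% higher. The limma test called 0 genes in atgsnor1-1, with 1 at an unadjusted p under 0.05 and 0.161% of all tested probe sets called, and 0 genes in sid2, with 2 at an unadjusted p under 0.05 and 1.50% of all tested probe sets called.

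WRKY53 averaged 111 ± 15.7 units in atgsnor1-3 after avrB, against 334 ± 13.6 units in Col-0 after avrB (SD, n = 2 each), a difference of -1.60 ± 0.27 (limma adjusted p = 0.000431). The call held without each of the 4 arrays, with differences between -1.74 and -1.45. In sid2 after avrB it averaged 298 ± 41.6 units, with arrays that overlapped those of Col-0, a difference of -0.17 ± 0.27 and a 95% interval between -0.75 and 0.40. In atgsnor1-1 after avrB it averaged 547 ± 147 units, with arrays above those of Col-0 and a difference of 0.68 ± 0.27 (limma adjusted p = 0.373). WRKY53 was also lower in atgsnor1-3 than in sid2 after avrB, by -1.43 ± 0.27 (limma adjusted p = 0.00164). This was the 1 call among the 6 tested genes, in a comparison that called 6.34% of all tested probe sets lower and 2.52% higher.

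WRKY47 averaged 58.9 ± 6.46 units in atgsnor1-3 after avrB, against 138 ± 1.58 units in Col-0 after avrB (SD, n = 2 each), a difference of -1.23 ± 0.36 (limma adjusted p = 0.0187). That call ended without any 1 of the 4 arrays, with limma adjusted p between 0.056 and 0.0976. WRKY6 averaged 558 ± 52.9 units in atgsnor1-3 after avrB, against 285 ± 38.3 units in Col-0 after avrB. Its arrays lay above those of the other genotypes, and the difference from Col-0 was 0.97 ± 0.38 (limma adjusted p = 0.0766), with no call.

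ZAP1 was at -0.56 ± 0.22 in atgsnor1-3 (limma adjusted p = 0.0721) and -0.55 ± 0.22 in sid2 (limma adjusted p = 0.263), both with arrays below those of Col-0. WRKY20 was at -0.43 ± 0.17 in atgsnor1-3 (limma adjusted p = 0.0774). WRKY22 was at 1.01 ± 0.42 in sid2 after avrB (limma adjusted p = 0.298), with both arrays above those of the other 3 genotypes after avrB. None of these differences was called.

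The guard cell marker FAMA had 45.0 and 29.2 units in atgsnor1-3 after avrB, against 70.5 and 66.3 units in Col-0 after avrB, a difference of -0.91 ± 0.31 (limma adjusted p = 0.0444) that missed the size threshold. Its part in the WRKY results was not tested.

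**Figure D3:**
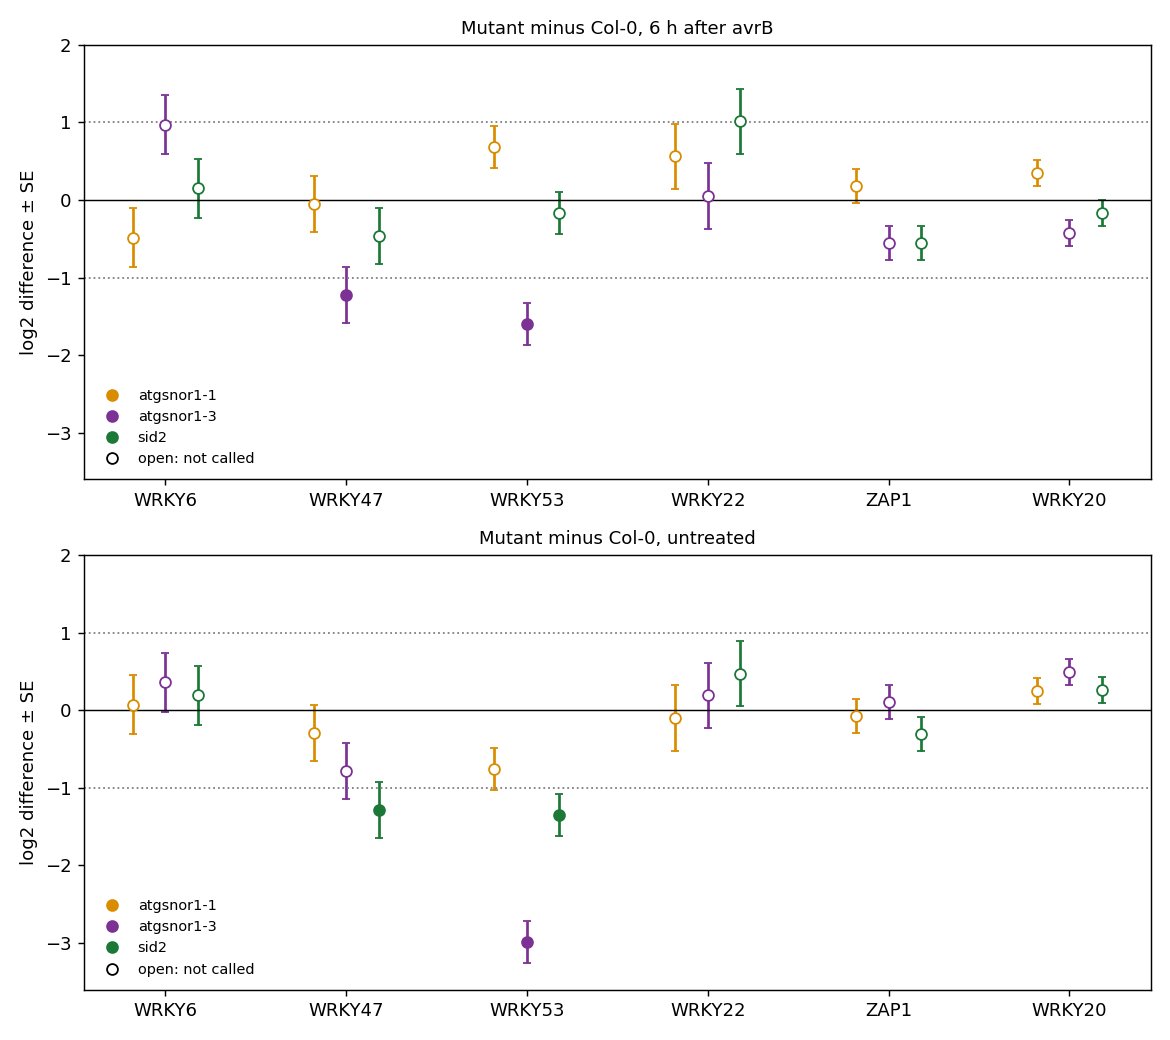
Log2 difference between each mutant and Col-0 for the 6 tested WRKY genes, 6 h after avrB (upper panel) and untreated (lower panel), with bars of 1 SE from limma; filled points are called, open points are not, dotted lines mark differences of 1 in size, and the 3 mutants share the Col-0 arrays within a panel. WRKY53 of atgsnor1-3 stands at -1.60 after avrB and at -2.99 untreated, and WRKY6 has no called difference with all arrays, though 1 in atgsnor1-3 and 1 in sid2 would be called untreated without array 2 of untreated Col-0.

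The last comparison asked whether a gene's response to avrB in a mutant differed from its response in Col-0. WRKY53 responded more strongly in atgsnor1-3, by 1.39 ± 0.38 (limma adjusted p = 0.0181). It was the 1 call among the 6 tested genes, where 6.79% of all tested probe sets were called higher and 8.27% lower. The larger response went with a lower untreated level and a lower level after avrB than in Col-0. This call ended without array 2 of untreated Col-0 (limma adjusted p = 0.0778), without array 2 of untreated atgsnor1-3, at 0.95, and with array 1 of avrB-treated Col-0 left out (limma adjusted p = 0.0609). It ended as well when array 2 of avrB-treated atgsnor1-3 was left out (limma adjusted p = 0.074), with a pseudocount, at 0.93, and in a fit limited to the compared groups (limma adjusted p = 0.0573).

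For WRKY53 the difference between responses in atgsnor1-1 and in sid2 was 1.45 ± 0.38 (limma adjusted p = 0.108) and 1.18 ± 0.38 (limma adjusted p = 0.138), and was not called. In a fit limited to the compared groups both would be called (limma adjusted p = 0.0492 in atgsnor1-1 and 0.0418 in sid2), and with a pseudocount so would atgsnor1-1, at 1.37 (limma adjusted p = 0.0459). The limma test called 0 of the 6 tested genes in either comparison, with 1 at an unadjusted p under 0.05 in each. It called 0.557% and 2.60% of all tested probe sets. For atgsnor1-1 the unadjusted p of WRKY53 was 0.00167, for atgsnor1-3 0.00224 and for sid2 0.00733, and the adjusted values also depend on how many other probe sets were called in each comparison. The 3 comparisons share the 4 Col-0 arrays, so they are not separate evidence.

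For WRKY20 the difference between the responses of atgsnor1-3 and Col-0 was -0.91 ± 0.24 (limma adjusted p = 0.0134), past the p threshold and under the size threshold. Without array 1 of untreated atgsnor1-3 it was -1.02 (limma adjusted p = 0.0125), which would be a call. For WRKY6 the differences between responses ran between -0.56 and 0.62, and for WRKY47 between -0.45 and 0.82, with no call. Without array 1 of untreated Col-0, the WRKY6 difference in atgsnor1-3 was 1.48 (limma adjusted p = 0.011), which would be a call, and without array 2 it was -0.24.

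Ordered by group means, WRKY53 was highest in atgsnor1-1 after avrB, followed by Col-0 and sid2 after avrB, which overlapped. Untreated Col-0 and atgsnor1-3 after avrB came next and overlapped, followed by untreated atgsnor1-1, untreated sid2 and untreated atgsnor1-3, each with arrays below those of the group before it. The highest group mean was 29.7 times the lowest. WRKY6 was highest in atgsnor1-3 after avrB, then in sid2 and Col-0 after avrB, which overlapped, and then in atgsnor1-1 after avrB, while its 4 untreated groups could not be ordered. WRKY47 was highest in Col-0 and atgsnor1-1 after avrB, which overlapped, then in sid2 after avrB, and the 2 groups that followed, atgsnor1-3 after avrB and untreated Col-0, overlapped. For ZAP1 and WRKY20 the highest group mean was 1.67 and 1.83 times the lowest.

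WRKY42, which is known to act with WRKY6 on a phosphate transporter gene, was under 20.2 units on 15 of 16 arrays. Its signals were 6.50 and 32.4 units in untreated atgsnor1-3, 14.1 and 3.51 units in atgsnor1-3 after avrB and 13.5 and 1.06 units in Col-0 after avrB, and between 1.92 and 4.16 units in the other groups. The replicate arrays of the first 3 groups lay several-fold apart. Without the filter on dim probe sets, where it was tested, no comparison called it, and the limma adjusted p was 0.225 or more.

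Of genes known to act with WRKY factors, none of 11 loci of the mitogen-activated protein kinase cascade, 1 of 5 loci of VQ-motif partners, and 2 of 22 loci of known targets and salicylic acid regulators had a matched probe set. The partner was IKU1, which works with a WRKY factor in seeds, and it had no call in the 15 comparisons. The other 2 genes, GRX480 and UGT76B1, were called higher after avrB in all 4 genotypes and lower in untreated atgsnor1-3 and untreated sid2 than in untreated Col-0. Of all tested probe sets, between 7.31% and 15.0% were called higher after avrB, by genotype. In untreated atgsnor1-3 6.50% were called lower, and in untreated sid2 3.96%. UGT76B1 passed the filter on mean signal largely through its arrays after avrB, so its calls there are not separate evidence. The glutaredoxin gene GRX480 had 6.50 and 5.99 units in untreated atgsnor1-3, 27.8 and 25.3 units in untreated sid2 and 45.2 and 59.0 units in untreated atgsnor1-1, against 163 and 66.8 units in untreated Col-0. Both untreated atgsnor1-3 arrays lay under 20.2 units. After avrB, GRX480 had 688 and 702 units in atgsnor1-1, 322 and 291 units in atgsnor1-3, and 267 and 294 units in sid2, against 504 and 542 units in Col-0. Here atgsnor1-3 and sid2 overlapped, whereas WRKY53 was lower in atgsnor1-3 than in sid2.

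The response of GRX480 in atgsnor1-3 was called larger than that in Col-0 (limma adjusted p = 4.98e-05), and its size is imprecise because of these low untreated signals. UGT76B1, a glycosyltransferase gene of salicylic acid control, had 17.7 and 13.7 units in untreated atgsnor1-1, 0.849 and 16.9 units in untreated atgsnor1-3 and 2.28 and 6.04 units in untreated sid2, against 32.8 and 70.5 units in untreated Col-0. All untreated mutant arrays lay under 20.2 units, and the arrays of atgsnor1-3 and sid2 overlapped, whereas for WRKY53 and GRX480 those of untreated atgsnor1-3 lay below those of untreated sid2. After avrB, UGT76B1 had 1570 and 1960 units in atgsnor1-1, 504 and 297 units in atgsnor1-3 and 141 and 105 units in sid2, against 1040 and 790 units in Col-0. None of these differences from Col-0 was called. They were 0.96 ± 0.87 in atgsnor1-1 (limma adjusted p = 0.803), -1.23 ± 0.87 in atgsnor1-3 (limma adjusted p = 0.342) and -2.89 ± 0.87 in sid2 (limma adjusted p = 0.112).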

How the data were processed

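RNA from leaves was hybridised to 16 1-colour ATH1 arrays. The authors deposited a linear intensity for each probe set on each array. The submitters' processing notes name MAS5 and GCOS, with versions not given in the sources used here. Each array had been scaled by the authors to a mean of 100 units, taken without the lowest and highest 2% of signals, as the values show.

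Groups came from the titles, and the title of the second sid2 avrB array names both replicate numbers. After 64 control probe sets and the dimmest 40% of the others were left out, log2 signals of 13647 of 22810 probe sets were fitted with limma 3.58.1 in R 4.3.3 (8 group means, variance trend, 8 residual degrees of freedom, two-sided). The Benjamini-Hochberg adjustment ran over all tested probe sets within each of 15 comparisons. Gene names came from the platform annotation, joined by gene ID to RefSeq loci (TAIR10.1). Probe sets with more than 1 gene ID or more than 1 gene symbol listed, or with no symbol, were left out, and 13436 probe sets with 1 locus remained. A locus without a match may thus still have a probe set on the array. The naming rule asked for array signals of WRKY genes called in any comparison, and of those with known roles in leaf defence or senescence; signals of WRKY42, ZAP1 and WRKY20 were added after their values were seen. Other genes are named only from the lists of partners, targets and markers. Sequences were not used here. The WRKY loci, subgroups and lists were chosen with earlier results of these data known. The fit was tested on simulated data for the Col-0 response alone, with added differences well past the size threshold. Added differences near that threshold and differences between responses were not simulated. Alternatives were quantile normalization, no filter, a pseudocount of 9.48 units, the replicate number as a block, a fit limited to the compared groups, and leaving out single arrays, which leaves 7 residual degrees of freedom in the fit of all arrays. The number of arrays limits the precision. GSNOR1 was not analysed here, and the genotypes rest on the labels alone. Summaries and plots used Python 3.11.15 with pandas 2.3.3 and matplotlib 3.10.9.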

Additional observations from a re-analysis of the deposited data

Results flagged for a closer look

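The response of WRKY53 to avrB was larger in atgsnor1-3 than in Col-0, with a tested difference between the responses of 1.39 (limma adjusted p = 0.0181). This call ended in several of the alternatives given above. In atgsnor1-1 and in sid2 the difference from the Col-0 response was 1.45 and 1.18, and neither was called. For WRKY20 the tested difference between the responses of atgsnor1-3 and Col-0 was -0.91 (limma adjusted p = 0.0134), under the size needed for a call.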

How the results depend on the processing

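Across the alternatives, 125 of 149 recomputed counts of called WRKY genes stayed within 1.5 times the reported count, 17 fell and 7 rose beyond that, and of 894 recomputed gene differences, of called and uncalled genes, 817 kept their direction and call, 22 lost the call, 10 gained it and 45 changed direction. No called difference changed direction. A count of 2 in place of 3 was taken as within 1.5 times, and counts that stayed at 0 are among the 125. In untreated sid2 against Col-0, 1 gene was called in place of 2 with a pseudocount, and likewise in a fit limited to the compared groups. In that fit, 0 in place of 1 was called in untreated atgsnor1-3 against sid2. For the difference between responses, the pseudocount and the fit of the compared groups each gave 0 in place of 1 in atgsnor1-3 and 1 in place of 0 in atgsnor1-1, and the fit of the compared groups gave 1 in place of 0 in sid2; in each case the gene was WRKY53. Leaving out 1 array gave counts between 1 and 2 for the Col-0 response (1 without array 1 of untreated Col-0), between 1 and 2 in untreated atgsnor1-3 and in untreated sid2 against Col-0, between 1 and 1 in atgsnor1-3 against Col-0 after avrB, and between 0 and 2 for the difference between the responses of atgsnor1-3 and Col-0. A group with 1 remaining array was given the spread of the rest. The cause of these changes was not tested, beyond the smaller number of arrays.

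With the replicate block, every count of called WRKY genes was unchanged, for example 3 for the Col-0 response. The labels do not say what a shared replicate number means. Across probe sets, deviations of same-numbered arrays correlated between -0.15 and 0.10 over 28 pairs of groups. With 2 arrays per group, these values cannot settle whether same-numbered arrays belong together. Exchanging the numbers of the untreated Col-0 arrays, an alternative chosen after seeing the data, left 0 calls in untreated atgsnor1-1 and 2 in untreated sid2. Over all probe sets, the 20 calls of untreated atgsnor1-1 against Col-0 became 10 without the filter and 6 with only the compared groups. After avrB the 22 calls became 12 without the filter, 63 with only the compared groups and 11 with the replicate block. The 76 calls for the difference between those responses became 42 without the filter, 123 with a pseudocount and 119 with only the compared groups. With only the compared groups, 1199 calls of untreated atgsnor1-3 became 782, 205 calls of sid2 after avrB became 374, and 307 calls of untreated atgsnor1-3 against sid2 became 146. Without 1 array, these counts ran between 7 and 83 in untreated atgsnor1-1, between 5 and 113 in atgsnor1-1 after avrB and between 1 and 201 for the difference between its response and that of Col-0. They went down to 94 in sid2 after avrB, ran between 189 and 638 in untreated atgsnor1-3 against sid2, and went down to 203 of 355 for the difference between the responses of sid2 and Col-0. Signals under 20.2 units limit the size of differences for WRKY53 and GRX480 in untreated atgsnor1-3 and for UGT76B1 in the untreated mutants. The same holds for WRKY47 in untreated sid2 (16.6 units on array 2). It also holds for WRKY6 and WRKY22 on array 1 of untreated Col-0 (11.7 and 18.9 units) and of untreated atgsnor1-1 (18.4 and 18.9 units).

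The differences that changed direction were uncalled. With quantile normalization, WRKY22 stood at 0.23 for the atgsnor1-3 response and at 0.10 in untreated atgsnor1-1 against Col-0, and WRKY6 at -0.02 in untreated atgsnor1-3 against sid2. With a pseudocount, WRKY6 stood at 0.06 for the difference between the responses of sid2 and Col-0. The others changed direction on leaving out 1 array, with the ranges that follow. For the avrB response in Col-0, ZAP1 ran between -0.30 and 0.26, WRKY22 ran between -0.39 and 0.45 and WRKY20 ran between -0.03 and 0.12. For the avrB response in atgsnor1-1, ZAP1 ran between -0.01 and 0.46. For the avrB response in atgsnor1-3, WRKY22 ran between -0.46 and 0.24. In atgsnor1-1 against Col-0, untreated, WRKY6 ran between -0.79 and 0.93, ZAP1 ran between -0.35 and 0.21 and WRKY22 ran between -0.52 and 0.32. In atgsnor1-3 against Col-0, untreated, WRKY6 ran between -0.51 and 1.22, ZAP1 ran between -0.18 and 0.39 and WRKY22 ran between -0.23 and 0.61. In sid2 against Col-0, untreated, WRKY6 ran between -0.67 and 1.05. In atgsnor1-1 against Col-0, after avrB, WRKY47 ran between -0.33 and 0.24. In atgsnor1-3 against Col-0, after avrB, WRKY22 ran between -0.30 and 0.41. In sid2 against Col-0, after avrB, WRKY6 ran between -0.05 and 0.34. In atgsnor1-3 against sid2, untreated, WRKY6 ran between -0.01 and 0.34 and WRKY47 ran between -0.05 and 1.07. In atgsnor1-3 against sid2, after avrB, ZAP1 ran between -0.08 and 0.07. For the difference between the responses of atgsnor1-1 and Col-0, WRKY6 ran between -1.43 and 0.30, ZAP1 ran between -0.04 and 0.53 and WRKY47 ran between -0.04 and 0.53. For the difference between the responses of atgsnor1-3 and Col-0, WRKY6 ran between -0.24 and 1.48, WRKY22 ran between -0.56 and 0.29 and WRKY47 ran between -1.01 and 0.11. For the difference between the responses of sid2 and Col-0, WRKY6 ran between -0.90 and 0.82 and ZAP1 ran between -0.53 and 0.03.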
